A study of Homo sapiens with 12 samples.

Results

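The genes described here are 9 classic transcriptional targets of the tumour suppressor p53 (CDKN1A, MDM2, BTG2, SESN1, TP53I3, TP53INP1, ZMAT3, FDXR and CCNG1) and GDF15, which encodes a secreted stress cytokine. They were selected by exact gene symbol, and all 10 were listed in both deposited tables, out of 12360 genes listed in either. Stranded mRNA sequencing was run on established cell lines: SW48, a colorectal adenocarcinoma line, and 23132/87, a gastric adenocarcinoma line, both labelled with the genotype WT. The treatment was 10 µM myricone C, a neolignan from Myristica fragrans, or its vehicle (0.1% DMSO), and lasted 48 h. There were 3 biological replicates for each of the 4 groups: SW48 with myricone C, SW48 with vehicle, 23132/87 with myricone C and 23132/87 with vehicle. Each line stands for its tumour type as a single line, at a single dose and time.

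In unstressed cells p53 is kept low by the ubiquitin ligase MDM2, which is itself a p53 target, so that p53 activity feeds back on its own stability. When p53 is stabilised it binds paired copies of a short half-site in its target genes, and those targets halt the cell cycle, repair DNA, change redox metabolism or promote apoptosis. The integrated stress response uses another transcription factor, ATF4, which is translated when translation initiation factor eIF2 is phosphorylated, for example in endoplasmic reticulum stress, and which induces DDIT3, the gene of the factor CHOP. GDF15 and CDKN1A are reported as responsive to both branches, as are SESN2, DDIT4, TNFRSF10B, PMAIP1, BBC3, GADD45A, PPP1R15A, ATF3 and TRIB3. The measurements below place the 10 genes beside lists of other p53 targets and of stress response genes.

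Sequences of the promoter windows in RefSeq (GRCh38.p14, 250 bases before to 50 bases after each start) were matched for 9 of the 10 genes, with 17 windows in all. They are shown for the genes in whose windows a p53 half-site, or 2 adjoining ones with up to 1 mismatch each, was found. That search allowed no mismatch at the C and G in the core of each half-site, so elements that change those bases are not marked. No window of the 9 genes held a pair of half-sites without mismatch. Whether p53 binds any of the stretches shown was not tested. The MDM2 stretch is the inner promoter, within the gene, on the plus strand at chr12:68808767-68809001. Capitals mark first the AP-1 letters TGACTCA, then 2 adjoining p53 half-sites with up to 1 mismatch each. The SESN1 stretch is at chr6:109008989-109009048 and the FDXR stretch at chr17:74872995-74873024, both on the minus strand, with 1 half-site in capitals in each.
MDM2: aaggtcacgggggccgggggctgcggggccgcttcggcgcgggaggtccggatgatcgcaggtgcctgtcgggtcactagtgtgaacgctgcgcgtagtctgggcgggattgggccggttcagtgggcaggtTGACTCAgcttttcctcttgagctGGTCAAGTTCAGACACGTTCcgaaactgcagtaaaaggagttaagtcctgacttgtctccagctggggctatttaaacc
SESN1: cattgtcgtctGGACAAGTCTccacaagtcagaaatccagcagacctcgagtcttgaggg
FDXR: ggcgggcccgggcaggagcGGGCTTGCCCt

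Across 35116 RefSeq windows of this length, searched on both strands, 6.63% held a p53 half-site without mismatch and 0.157% held the adjoining half-sites with up to 1 mismatch each. The AP-1 letters TGANTCA were found in 7.71% of windows, the ATF4 composite core TGATGNAA in 3.62% and the cyclic AMP response element TGACGTCA in 1.85%. Neither TGATGNAA nor TGACGTCA occurred in a window of the 9 genes. The windows of GDF15 and CDKN1A held none of the letters searched, which says only that these letters are not within those windows.

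SW48 vehicle replicate 2 and SW48 myricone C replicate 1 stood apart from their partners in ways that touch the results. In vehicle replicate 2, 8 of the 10 genes had their lowest vehicle value, as did 24 of 35 other p53 targets and 17 of 37 stress response genes, against 31.8% of all genes. GDF15 in that library was 1.95 and CDKN1A 1.47 below the mean of the other vehicle libraries on the log2 scale, and 0.519% of all genes lay at least 1 below. Keratin genes KRT18, KRT8 and KRT19 were low there too, at percentiles 0.268, 0.450 and 1.24 of all genes. In myricone C replicate 1, 34 of 37 stress response genes had their lowest treated value, against 35.0% of all genes, and small nuclear RNA genes and 7SL held 5.26% of the summed signal, against at most 0.204% in any other library. The part of these differences in the results was not tested. Values without these libraries are given for the 10 genes where a call in SW48 depends on them. The keratin genes, DDB2, EI24, POLH, CHEK1 and CHEK2 were not rerun without them, so whether their calls depend on these libraries is not known.

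**Figure D1:**
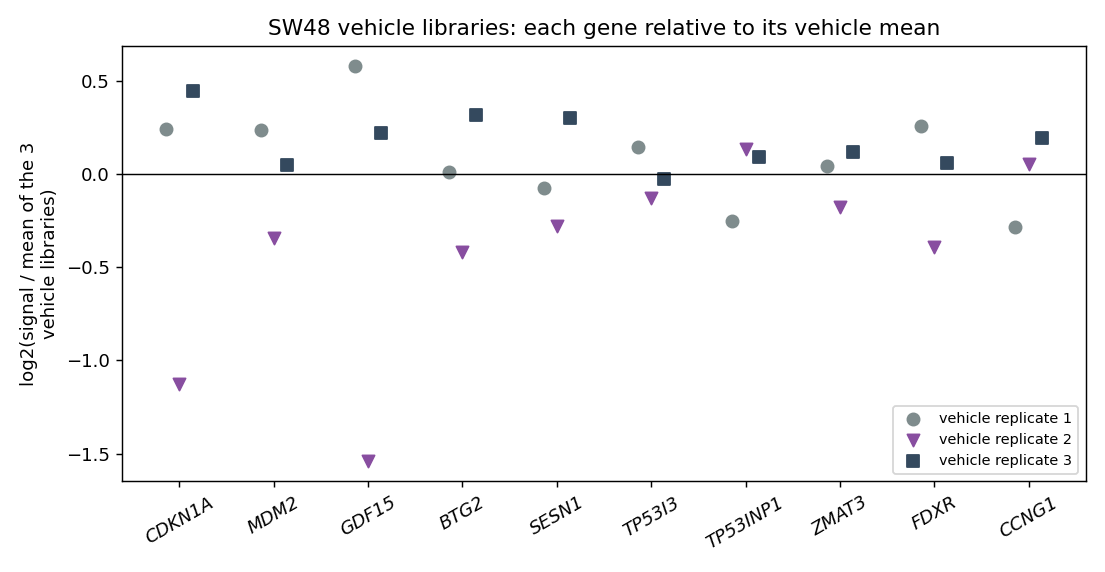
Each of the 10 genes in the 3 SW48 vehicle libraries, as log2 of the deposited signal over the mean of the 3 libraries (vertical axis). The triangles of vehicle replicate 2 lie lowest for 8 of the 10 genes, and farthest down for GDF15 and CDKN1A.

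Of the 10 genes, 3 rose and 2 fell with myricone C in SW48, against 29.3% of all genes called in that line (10.1% higher and 19.2% lower), at an adjusted p under 0.05 with limma. In 23132/87, 4 rose and 4 fell, against 46.5% of all genes (23.3% higher and 23.2% lower). GDF15, CDKN1A and MDM2 rose in both lines, and TP53I3 and FDXR fell in both. The number called was 8 without SW48 myricone C replicate 1 and 3 without SW48 myricone C replicate 2, and in 23132/87 it was 5 without vehicle replicate 1 and 4 without vehicle replicate 2. None of the 10 was called in opposite directions. Across genes listed in both tables, 7.14% were called higher and 12% lower in both lines, and 0.936% in opposite directions. The treated and vehicle libraries did not overlap for 5 of the 10 genes in SW48, against 45.3% of all genes, and for 8 of 10 in 23132/87, against 56.8%. The median log2 change of the 10 genes was -0.30 in SW48, against -0.08 over all genes, and 0.12 in 23132/87, against 0.01. Log2 changes are of the deposited signal plus 1, a scale that understates changes of low genes, and are given as myricone C minus vehicle.

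**Figure D2:**
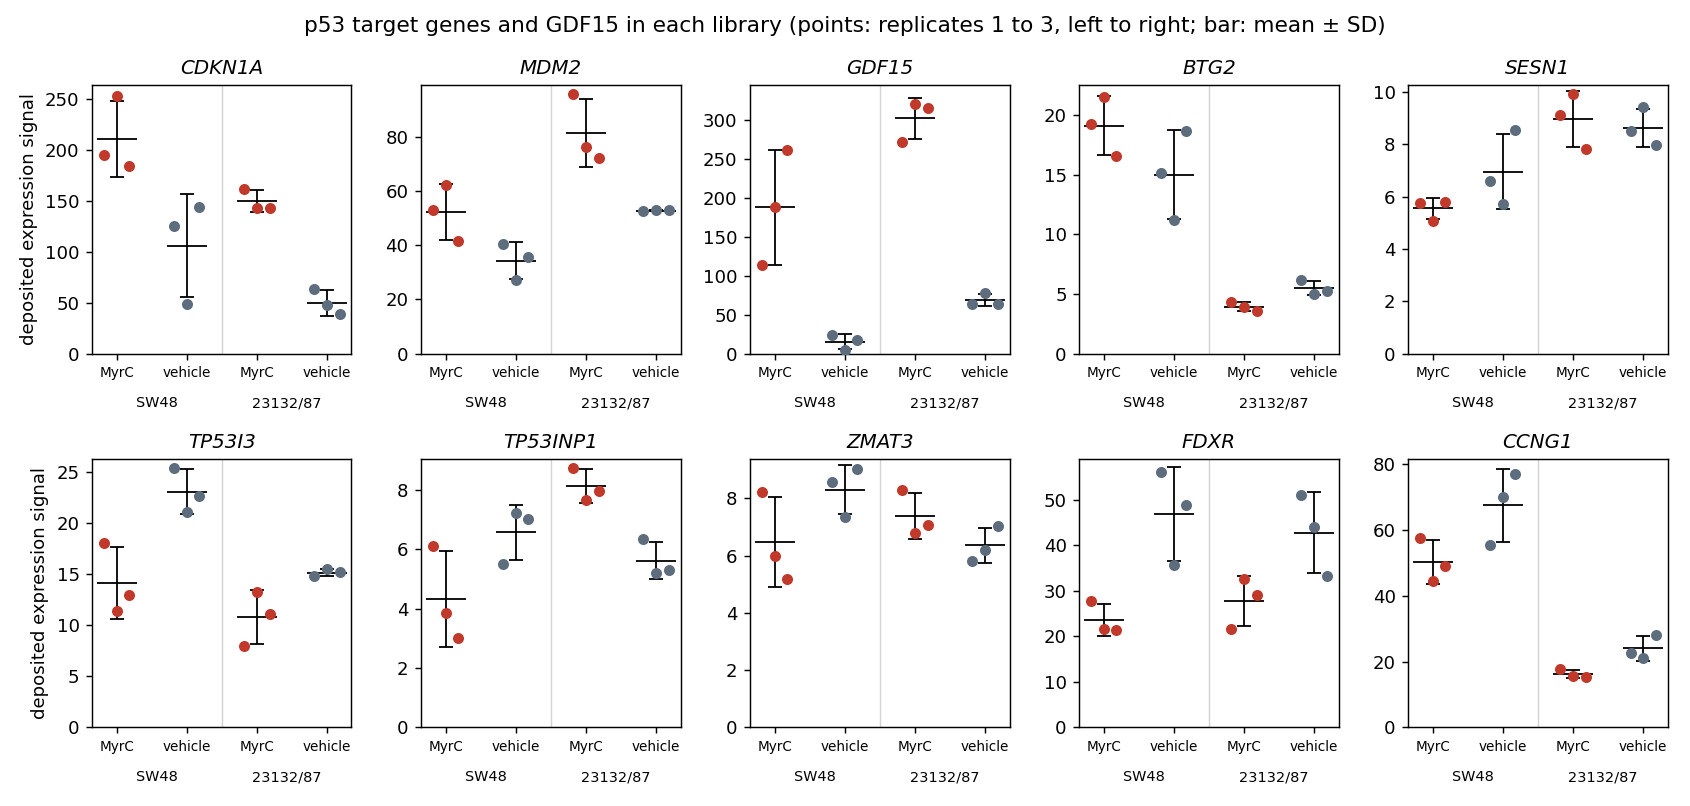
Deposited expression signal (vertical axis, from 0) of each gene in every library: red points are myricone C, grey points vehicle, with replicates 1 to 3 from left to right and bars for the mean and SD. GDF15 and CDKN1A lie higher with myricone C in every treated library of both lines, and FDXR and TP53I3 lie lower.

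GDF15, a divergent member of the TGF-beta family that acts on the brainstem receptor GFRAL, lies at chromosome 19, 18374731 to 18389176. Its signal in SW48 was 114, 189 and 262 in myricone C replicates 1, 2 and 3, against 23.5, 5.40 and 18.2 in vehicle replicates 1, 2 and 3. The treated libraries were all higher, and spread widely, as did the vehicle ones. This was a mean of 188 ± 73.7 with myricone C and 15.7 ± 9.29 with vehicle (SD, n = 3), a log2 change of 3.63 ± 0.42 (SE, limma adjusted p = 0.000241). Without vehicle replicate 2 the change was 3.05 and remained called (limma adjusted p = 0.000254). In 23132/87 the signal was 272, 320.5 and 316 in myricone C replicates 1, 2 and 3, against 64.5, 78.1 and 64.3 with vehicle. The groups were far apart with little spread, at 303 ± 26.6 and 69.0 ± 7.93 (SD, n = 3), a log2 change of 2.12 ± 0.11 (SE, limma adjusted p = 2.17e-06).

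The SW48 change of GDF15 minus its 23132/87 change was 1.51 ± 0.52 on the log2 scale (SE), with a 95% interval of 0.39 to 2.63, and was not called after adjustment over all genes (limma adjusted p = 0.0709). It was called without SW48 vehicle replicate 1 (1.89) or myricone C replicate 1 (1.83), and without SW48 vehicle replicate 2 it was 0.93 and not called. Without both SW48 vehicle replicate 2 and myricone C replicate 1, a choice made after seeing the data, it was 1.24 and called (limma adjusted p = 0.00479). Levels in the lines come from tables made separately, so they are not set against each other. Of genes for the receptor complex and for proteases, 3 of 7 were listed in SW48. There the proprotein convertase gene FURIN fell by 0.49 and the membrane protease gene MMP14 by 0.68 on the log2 scale. The convertase gene PCSK7 was not called in SW48 (-0.21). In 23132/87, 2 of the 7 were listed, of which PCSK7 fell by 0.77 and FURIN was not called (-0.41). Of all genes, 19.2% fell in SW48 and 23.2% in 23132/87. By Pearson correlation over the 12 libraries after centring on each line, the genes most like GDF15 included the phosphate transporter gene SLC20A1 (0.982), the amino acid transporter gene SLC7A5 (0.981) and PVR (0.981). These values share the libraries and the treatment.

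CDKN1A encodes p21, an inhibitor of cyclin-dependent kinases that stops the cell cycle, at chromosome 6, 36676460 to 36687339. Its signal in SW48 was 195, 253 and 184 in myricone C replicates 1, 2 and 3, against 125, 48.5 and 144 with vehicle. All treated values lay above all vehicle values, and vehicle replicate 2 was the lowest by far. The means were 211 ± 37.0 and 106 ± 50.5 (SD, n = 3), a log2 change of 1.11 ± 0.32 (SE, limma adjusted p = 0.0224). The call was lost without myricone C replicate 2 (0.98, limma adjusted p = 0.0772), and without vehicle replicate 2 the change was 0.63 (limma adjusted p = 0.0155). In 23132/87 the signal was 162, 143 and 143 with myricone C, against 63.4, 47.5 and 38.5 with vehicle. The groups did not overlap there, at 149 ± 10.9 and 49.8 ± 12.6 (SD, n = 3), and the log2 change was 1.59 ± 0.16 (SE, limma adjusted p = 4.86e-05).

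The SW48 change of CDKN1A minus its 23132/87 change was -0.48 ± 0.42 (SE, 95% interval -1.37 to 0.41) and was not called (limma adjusted p = 0.484). Without SW48 vehicle replicate 2 the difference was -0.96 and was called (limma adjusted p = 0.0283). Genes most like CDKN1A, by the same correlation over 12 libraries, were PVT1 (0.954), TMEM147-AS1 (0.953), YBX3 (0.949) and DESI1 (0.935). Of 16 cell cycle genes that p21 is known to lower through the DREAM repressor complex, all 16 fell in each line, against 19.2% of all genes called lower in SW48 and 23.2% in 23132/87. Their median log2 change was -1.12 in SW48 and -1.09 in 23132/87. Whether p21 had a part in these falls was not tested. The list of 22 from which they come also holds 6 genes of the complex itself, which were left out after their values were seen, and with them 17 fell in each line and LIN37 rose in 23132/87 (0.85). In SW48 BIRC5, the gene of survivin, was at -1.45, cyclin A2 gene CCNA2 at -1.29 and the transcription factor gene FOXM1 at -1.25. In 23132/87 the transcription factor genes MYBL2 and E2F1 were at -2.47 and -2.20 and the helicase gene MCM5 at -2.43.

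MDM2, the ubiquitin ligase that limits p53, lies at chromosome 12, 68808176 to 68850686. It rose in both lines. In SW48 its signal was 53.1, 62.2 and 41.7 in myricone C replicates 1, 2 and 3, against 40.4, 27.1 and 35.5 with vehicle. The lowest treated library was just above the highest vehicle library, and the log2 change was 0.59 ± 0.17 (SE, limma adjusted p = 0.0252). The call was lost without vehicle replicate 2 (0.44), vehicle replicate 3 (0.63) or myricone C replicate 2 (0.46). In 23132/87 the values were 95.7, 76.4 and 72.0 with myricone C, against 52.5, 52.8 and 52.97 with vehicle, where the vehicle libraries were nearly identical. The log2 change there was 0.60 ± 0.11 (SE, limma adjusted p = 0.00200), and the difference between lines was -0.01 with a 95% interval of -0.49 to 0.47 (limma adjusted p = 0.981). The sign of that difference turned positive under other scalings.

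Other regulators of p53 were read beside MDM2. MDM4, an MDM2 relative that blocks p53 activity, was at 8.57, 9.67 and 9.48 with myricone C in SW48, against 6.57, 8.43 and 7.71 with vehicle, and was not called (0.26, limma adjusted p = 0.176). In 23132/87 MDM4 was at 15.5, 12.5 and 11.4 with myricone C, against 7.03, 6.09 and 7.75 with vehicle, and rose by 0.83 (limma adjusted p = 0.00121). All treated libraries lay above all vehicle libraries in both lines. Of the listed p53 regulators, 4 of 18 rose and 2 fell in 23132/87, against 23.3% and 23.2% of all genes. In SW48, 1 of 20 rose and 3 fell, against 10.1% and 19.2%. ATM, the gene of a DNA damage kinase, rose by 1.00 and the ubiquitin ligase gene RCHY1 by 0.61 in 23132/87. Neither was called in SW48 (0.20 and 0.02). The checkpoint kinase genes CHEK1 and CHEK2, whose products act on p53 after DNA damage, fell in both lines, at -0.61 and -0.69 in SW48 and -1.17 and -0.75 in 23132/87. TP73, the gene of a p53 relative, fell in SW48 (-0.95). The libraries measure transcripts, not p53 protein or its activity.

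FDXR and TP53I3 encode redox enzymes: ferredoxin reductase of the mitochondrion, at chromosome 17, 74862497 to 74873031, and a quinone oxidoreductase, at chromosome 2, 24077433 to 24085861. Both fell in each line. FDXR in SW48 was at 27.8, 21.6 and 21.4 in myricone C replicates 1, 2 and 3, against 56.1, 35.7 and 48.9 with vehicle, a log2 change of -0.95 ± 0.17 (SE, limma adjusted p = 0.00212). FDXR in 23132/87 was at 21.7, 32.6 and 29.03 with myricone C, against 51.1, 44.0 and 33.3 with vehicle, a log2 change of -0.60 ± 0.18 (SE, limma adjusted p = 0.0189). Groups did not overlap in either line, but in 23132/87 the gap between them was narrow. The 23132/87 call was lost without vehicle replicate 1 (-0.47), vehicle replicate 2 (-0.57) or myricone C replicate 1 (-0.44).

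TP53I3 was at 18.1, 11.4 and 12.96 with myricone C in SW48, against 25.4, 21.1 and 22.6 with vehicle, a log2 change of -0.69 ± 0.16 (SE, limma adjusted p = 0.00950). In 23132/87 it was at 8.00, 13.2 and 11.1 with myricone C, against 14.8, 15.5 and 15.2 with vehicle, a log2 change of -0.48 ± 0.16 (SE, limma adjusted p = 0.0316). All treated values lay below all vehicle values in both lines, with the tightest vehicle group in 23132/87. The 23132/87 call was lost on leaving out any one library other than myricone C replicate 2, at values between -0.51 and -0.30. CRYZ, the gene of a related quinone oxidoreductase, fell by 0.93 in SW48 and by 0.62 in 23132/87 on the log2 scale.

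SESN1 encodes sestrin 1, which restrains mTORC1 signalling, and was not called in either line. It was at 5.78, 5.08 and 5.82 with myricone C in SW48, against 6.59, 5.73 and 8.55 with vehicle (-0.27 ± 0.16, SE, limma adjusted p = 0.227). In 23132/87 it was at 9.13, 9.94 and 7.83 with myricone C, against 8.51, 9.42 and 7.98 with vehicle (0.05 ± 0.13, SE, limma adjusted p = 0.794). The groups overlapped in both lines, and the sign in 23132/87 turned after quantile normalization. Its relative SESN2, reported as a target of ATF4 as well as of p53, rose in both lines. SESN2 was at 17.9, 36.4 and 28.7 with myricone C in SW48, against 4.82, 5.37 and 6.81 with vehicle, a log2 change of 2.06 ± 0.22 (SE, limma adjusted p = 0.000180). In 23132/87 it rose by 2.34 ± 0.16 (SE, limma adjusted p = 5.38e-06).

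CCNG1 encodes cyclin G1 and BTG2 an antiproliferative cofactor of mRNA deadenylation. CCNG1 in SW48 was at 57.7, 44.6 and 49.0 with myricone C, against 55.4, 70.1 and 77.0 with vehicle, and its groups overlapped (-0.41 ± 0.15, SE, limma adjusted p = 0.0550). It was called there without vehicle replicate 1 (-0.54) or myricone C replicate 1 (-0.51). In 23132/87 CCNG1 was at 17.8, 15.8 and 15.2 with myricone C, against 22.6, 21.3 and 28.2 with vehicle, and fell by 0.53 ± 0.13 on the log2 scale (SE, limma adjusted p = 0.00705). The groups did not overlap there.

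BTG2 was at 19.3, 21.5 and 16.6 with myricone C in SW48, against 15.1, 11.2 and 18.7 with vehicle, so the groups overlapped (0.35 ± 0.18, SE, limma adjusted p = 0.157). In 23132/87 it was at 4.36, 3.92 and 3.59 with myricone C, against 6.19, 5.03 and 5.28 with vehicle, a log2 change of -0.39 ± 0.13 (SE, limma adjusted p = 0.0333). All treated libraries were lower there, and the call was lost without vehicle replicate 1 (-0.32), vehicle replicate 2 (-0.44), myricone C replicate 2 (-0.39) or myricone C replicate 3 (-0.34). BTG1, a relative in the same family, rose in both lines, by 1.82 in SW48 and 1.09 in 23132/87.

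TP53INP1, which promotes autophagy and p53-dependent death, and ZMAT3, an RNA-binding zinc finger protein, complete the set. TP53INP1 was at 6.13, 3.86 and 3.02 with myricone C in SW48, against 5.51, 7.21 and 7.01 with vehicle, where treated replicate 1 lay within the vehicle range (-0.54 ± 0.20, SE, limma adjusted p = 0.0678). Without that library the change was -0.77 and was called. TP53INP1 in 23132/87 was at 8.76, 7.67 and 7.97 with myricone C, against 6.35, 5.21 and 5.31 with vehicle, with no overlap, and rose by 0.47 ± 0.12 (SE, limma adjusted p = 0.0123). That call was lost without vehicle replicate 2 (0.42). Its relative TP53INP2 was at -0.31 in SW48, not called, and rose by 1.11 in 23132/87.

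ZMAT3 was at 8.21, 5.99 and 5.19 with myricone C in SW48, against 8.56, 7.34 and 9.01 with vehicle (-0.33 ± 0.17, SE, limma adjusted p = 0.156). Without myricone C replicate 1 it was called, at -0.50. In 23132/87 it was at 8.31, 6.80 and 7.06 with myricone C, against 5.82, 6.21 and 7.04 with vehicle, and was not called (0.19 ± 0.13, SE, limma adjusted p = 0.254). Groups overlapped in both lines.

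The change with myricone C differed between lines for 2 of the 10 genes, against 12.8% of all 10252 genes listed in both tables (5.34% higher in SW48 and 7.43% lower). For TP53INP1 the SW48 change minus the 23132/87 change was -1.01 ± 0.25 (SE, 95% interval -1.54 to -0.47, limma adjusted p = 0.0173), and for BTG2 it was 0.74 ± 0.23 (SE, 95% interval 0.26 to 1.22, limma adjusted p = 0.0441). The BTG2 call was lost on leaving out any one library other than SW48 vehicle replicate 3, SW48 myricone C replicate 3 or 23132/87 myricone C replicate 1, at values between 0.56 and 0.79, and the TP53INP1 call was kept on leaving out each library in turn. For the other 8 genes the difference was not called, which does not show equal changes: besides GDF15, CDKN1A and MDM2, ZMAT3 was at -0.52, FDXR at -0.34, SESN1 at -0.31, TP53I3 at -0.21 and CCNG1 at 0.12.

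**Figure D3:**
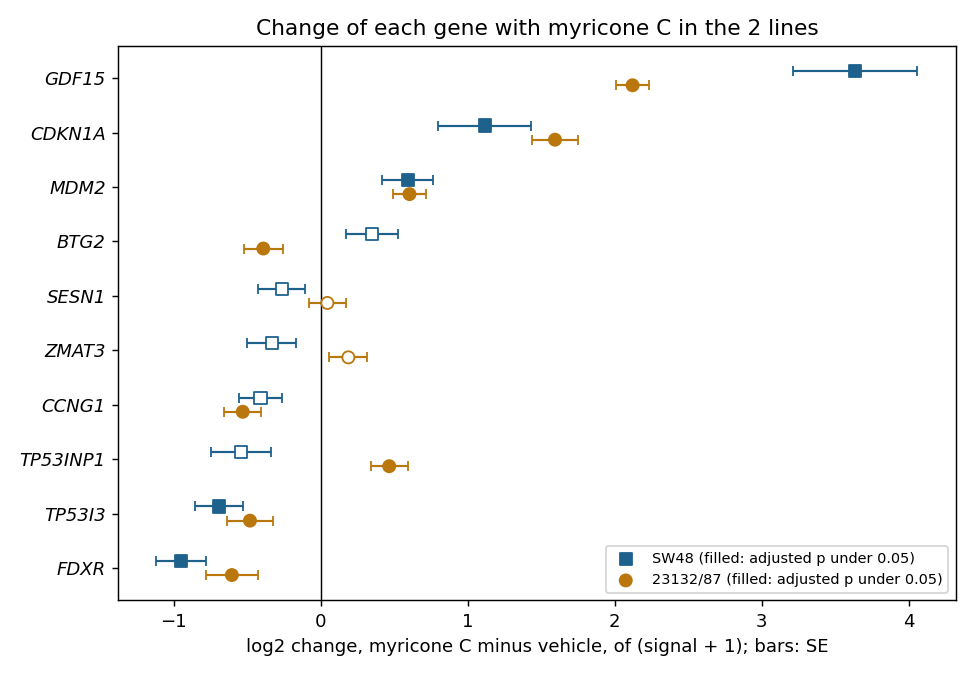
Log2 change with myricone C (horizontal axis, myricone C minus vehicle, bars SE) of each gene in SW48 (squares) and 23132/87 (circles), filled where the adjusted p is under 0.05. GDF15, CDKN1A and MDM2 lie right of 0 and TP53I3 and FDXR left of it in both lines. TP53INP1, BTG2, SESN1 and ZMAT3 lie on opposite sides of 0 in the lines, and SESN1 and ZMAT3 are filled in neither.

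Whether the genes that rose are ones tied to p53 or to ATF4 can be laid out as counts. The lists were written with earlier results of these data known, so the counts are a description and not a test. Among 37 listed stress response genes in each line, 34 rose and 0 fell in SW48 (median 1.60) and 33 rose and 1, ATF5, fell in 23132/87 (median 1.52). Among other p53 targets, 7 of 35 rose and 4 fell in SW48 (median 0.00) and 10 of 34 rose and 10 fell in 23132/87 (median -0.04). Of all genes, 10.1% rose and 19.2% fell in SW48 and 23.3% rose and 23.2% fell in 23132/87, so the 23132/87 counts of p53 targets are near those shares. These lists share genes. Of other p53 targets in no stress list, 2 of 30 rose and 4 fell in SW48 (median -0.06), and 5 of 29 rose and 10 fell in 23132/87 (median -0.16). Of stress genes in no p53 list, 30 of 33 rose in SW48 (median 1.50) and 28 of 32 rose in 23132/87 (median 1.45).

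Counting the 10 genes together with the other p53 targets, 45 were listed in SW48 and 10 rose, and 44 were listed in 23132/87 and 14 rose. Of these, 7 are reported for both p53 and ATF4 or CHOP, and all 7 rose in each line: CDKN1A, GDF15, SESN2, TNFRSF10B, PMAIP1, BBC3 and GADD45A. Of those not so reported, 3 of 38 rose in SW48, namely MDM2, PLK3 and BTG1, and 7 of 37 rose in 23132/87, namely these 3 with TP53INP1, RRM2B, XPC and TSKU. These counts are near or below the 10.1% and 23.3% of all genes that rose in SW48 and in 23132/87. The split rests on a double list written with earlier results known, and control by p53 or ATF4 was not tested. DDB2, a DNA repair factor, and EI24, an endoplasmic reticulum protein, fell in both lines, at -0.71 and -0.66 in SW48 and -0.71 and -0.73 in 23132/87. KITLG, a growth factor gene, fell by 0.83 in SW48 and 1.98 in 23132/87, a difference between lines of 1.15 (limma adjusted p = 0.000769). POLH, a translesion polymerase gene, fell by 0.48 in SW48 and 0.33 in 23132/87, and the kinase gene PLK2 was at 0.08 in SW48, not called, and fell by 0.78 in 23132/87. Counts of p53 targets depended on the libraries: without 23132/87 vehicle replicate 2, 6 of the other p53 targets fell in that line.

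**Figure D4:**
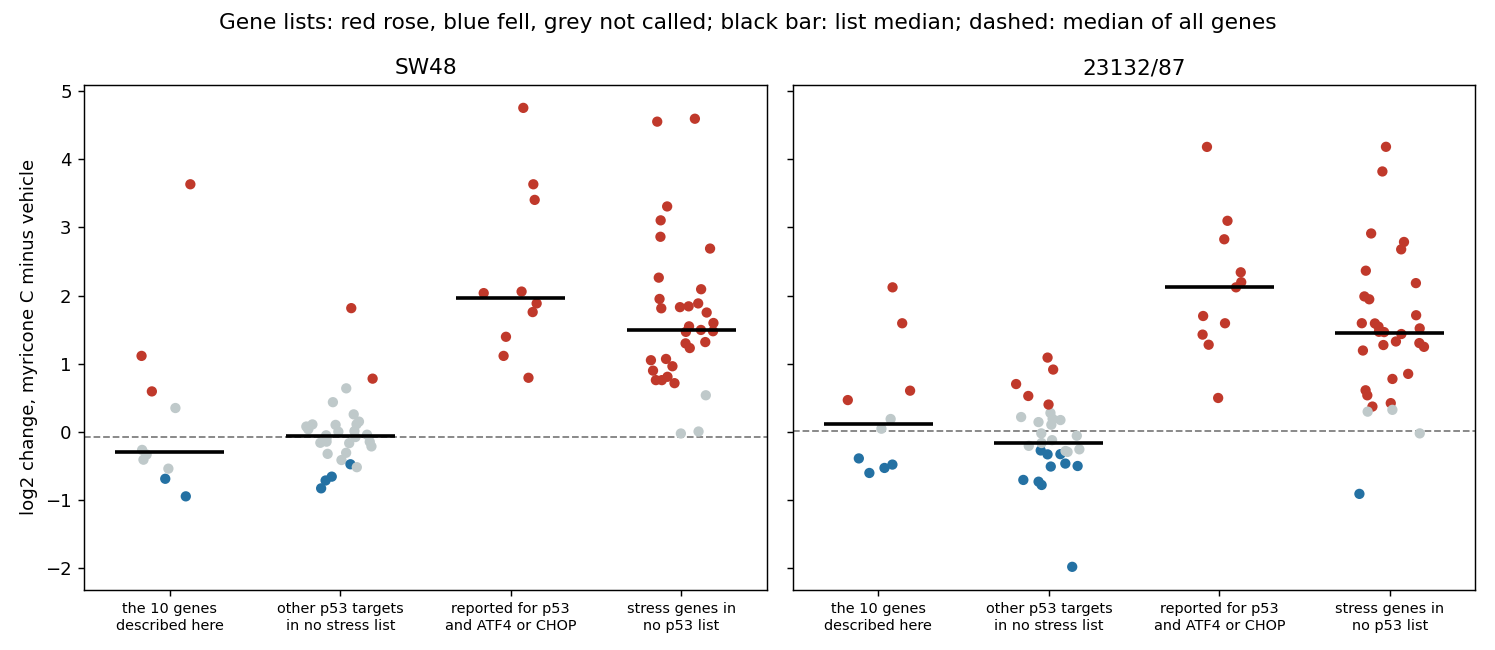
Log2 change with myricone C (vertical axis) of each listed gene in SW48 (left) and 23132/87 (right), by list: red points rose, blue points fell and grey points were not called, black bars are list medians and the dashed line is the median of all genes. The stress genes in no p53 list lie mostly above 0, with medians of 1.50 and 1.45, and the other p53 targets in no stress list lie around 0, with medians of -0.06 and -0.16. GDF15 and CDKN1A appear both among the 10 genes and among those reported for both branches.

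Genes reported for both branches rose in every case listed, 10 of 10 in SW48 (median 1.96) and 11 of 11 in 23132/87 (median 2.12). Of all genes, 10.1% rose in SW48 and 23.3% in 23132/87, and this list too was written with earlier results known. DDIT4, an mTORC1 inhibitor, was at 212, 440.3 and 528 with myricone C in SW48, against 12.2, 13.8 and 11.9 with vehicle, and at 384, 442 and 453 with myricone C in 23132/87, against 89.3, 95.6 and 91.0 with vehicle. The groups were far apart in each line, and the change differed between lines by 2.56 ± 0.32 (SE, limma adjusted p = 0.000354). GADD45A, a growth arrest gene, rose by 1.88 in SW48 and 1.70 in 23132/87. TNFRSF10B, a death receptor gene, rose by 1.76 in SW48 and 1.43 in 23132/87. PMAIP1 and BBC3, which encode the BH3-only proteins NOXA and PUMA, rose by 1.39 and 0.79 in SW48 and by 0.50 and 1.28 in 23132/87. The BBC3 call in SW48 was lost without vehicle replicate 3 (0.73) or myricone C replicate 3 (0.59). The PMAIP1 call in 23132/87 was lost without vehicle replicate 1 (0.49), 2 (0.52) or 3 (0.48) or myricone C replicate 2 (0.35).

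TRIB3, a pseudokinase induced by CHOP, rose by 3.40 in SW48 and 3.10 in 23132/87, and PPP1R15A, the eIF2 phosphatase subunit, by 2.04 and 2.83. ATF3, a stress-induced transcription factor listed for 23132/87, rose by 4.18 there. ATF4 itself was at 353, 507 and 564 with myricone C in SW48, against 133, 130 and 127 with vehicle, and at 479, 484 and 446 with myricone C in 23132/87, against 192, 200 and 223 with vehicle. It rose by 1.83 ± 0.16 in SW48 and 1.19 ± 0.10 in 23132/87 (SE), a difference of 0.64 ± 0.20 (limma adjusted p = 0.0448) that was lost on leaving out any library other than SW48 myricone C replicate 1. DDIT3 rose by 4.55 ± 0.29 in SW48 and 4.18 ± 0.19 in 23132/87 (SE).

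The labelled epithelial origin was checked on marker genes. In SW48, 8 of 14 gastric and intestinal epithelial markers were listed. Their summed signal was 2809 to 3985 with myricone C and 1071 to 1837 with vehicle. In 23132/87, 9 of 14 were listed, with 3153 to 4364 with myricone C and 8406 to 10985 with vehicle. KRT8, KRT18 and KRT19 made up most of each sum. Single markers went both ways. In SW48, 5 rose and 2 fell, the latter CDX2 (-1.47) and LGR5 (-0.76), against 10.1% and 19.2% of all genes. In 23132/87, 1 rose and 6 fell, against 23.3% and 23.2%. Of 6 leukocyte markers none was listed in SW48 and 1 in 23132/87: CD68, at 12.9 to 14.8 with myricone C and 3.95 to 6.48 with vehicle, which rose by 1.22 (limma adjusted p = 0.000288). The other 5, PTPRC among them, were not listed there, and of 7 mesenchymal markers 1 was listed in each line. The part of the epithelial and CD68 shifts in the results was not tested. The sources used here do not give the strand setting of the counting, so reads of antisense genes that overlap exons of CDKN1A (DINOL), MDM2 (CPM and AC025423.4), SESN1 (AL390208.1) and TP53I3 (FAM228B) cannot be told apart from their own. AC025423.2 overlaps MDM2 exons on the same strand, and no strand setting would separate its reads there. In bulk libraries, more transcript per cell and more cells with the transcript cannot be told apart either.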

How the data were processed

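Total RNA was made into libraries with the TruSeq Stranded mRNA chemistry, per the labels' protocols. The submitters' processing notes name FastQC, STAR and the build GRCh38, and the counting tool and annotation were not given in the sources used here. For each line the authors deposited 1 table of expression signal by gene. The unit is not stated: this deposited signal looks like FPKM or TPM, its scaling to gene length was not tested, and it sums to between 464037 and 536594 per library. Read depth is unknown, so no counting interval is given. Every listed value is at or above 1, so genes silent in either condition are not listed.

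Here log2(signal + 1) was fitted with limma 3.58.1 in R 4.3.3, with a mean-variance trend, over genes with a mean of at least 1 (all listed genes), with Benjamini-Hochberg adjustment over the whole table and a threshold of adjusted p under 0.05. Every adjusted p comes from these fits. The lines were fitted separately, each on 6 libraries, and the difference between lines on all 12, over 10252 genes with the same symbol and Ensembl identifier in both tables. Replicates are biological per the labels, and no library duplicated another. Positions are from GENCODE release 29 on GRCh38 and promoter windows from RefSeq on GRCh38.p14. On simulated data, the SW48 fit of 11554 genes recovered 17.9%, 68.7% and 98.5% of genes given log2 changes of 0.5, 1 and 2, the 23132/87 fit of 11070 genes 34.3%, 83.6% and 97.0%, and the fit of the difference, on 10252 genes, 14.9%, 64.2% and 100%. Unchanged genes made up 4.65%, 3.38% and 7.75% of the calls in these 3 simulated fits, the last above the 5% that the threshold allows on average. The simulations changed a far smaller share of genes than was called here (29.3% in SW48, 46.5% in 23132/87 and 12.8% for the difference). Recovery after adjustment depends on that share, so these rates do not carry over directly to the fits used.

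The members, gene lists and tests were chosen with earlier results of these data known. Beside the 10 genes, those named are up to 3 risen and 3 fallen genes per list and line with a mean of at least 10, every gene reported for both p53 and ATF4 or CHOP, MDM4, ATF4 and DDIT3, and the 4 genes most correlated with each of GDF15 and CDKN1A. Some genes covered by this rule are not reported here. The 3 risen p53 targets outside that double list in SW48 and the 7 in 23132/87, TP53INP2, PCSK7, LIN37, ATM, TP73, POLH and the markers CD68, KRT18, KRT8 and KRT19 were named after their values were seen. So were SLC1A5, CCNB2, CDX2 and LGR5.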

Additional observations from a re-analysis of the deposited data

Results flagged for a closer look

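The change with myricone C differed between SW48 and 23132/87, by the line-by-treatment term (limma), for 2 of the 10 genes and for 17 of the other genes named from lists. SLC1A5, CCNB2 and CDX2, given below, also differed and are not among these 17. Of all genes listed in both tables, 5.34% were called higher in SW48 and 7.43% lower. All differences below are the SW48 change minus the 23132/87 change on the log2 scale. Among the 10 genes the difference was -1.01 for TP53INP1, which was at -0.54 in SW48, not called, and rose by 0.47 in 23132/87. It was 0.74 for BTG2, which was at 0.35 in SW48, not called, and fell by 0.39 in 23132/87.

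Among stress genes the difference was 2.56 for DDIT4, 0.64 for ATF4 and 1.67 for ATF5, and -1.30 for the amino acid transporter gene SLC1A5. Of the 35 stress genes listed in both tables, 5 were called higher in SW48 and 1, SLC1A5, lower. Among other p53 targets it was 1.15 for KITLG, 0.86 for PLK2, -0.61 for XPC and -1.005 for TSKU, and for the relative TP53INP2 it was -1.42. Among p53 regulators it was -0.80 for ATM, -0.60 for RCHY1 and 0.56 for CHEK1. Among cell cycle genes it was 1.19 for MYBL2, 1.27 for MCM5 and 1.51 for E2F1, which fell in both lines. It was -0.80 for CCNB2, which also fell in both. Of the 16 cell cycle genes outside the DREAM complex, 3 were called higher in SW48 and 1 lower. Among epithelial markers it was 2.67 for KRT8, 3.17 for KRT18 and 1.96 for KRT19, which rose in SW48 and fell in 23132/87. CDX2 went the other way, at -1.45: it fell by 1.47 in SW48 and was not called in 23132/87 (-0.02). Of the 7 epithelial markers listed in both tables, 3 were called higher in SW48 and 1 lower. The differences for DDIT4 and TP53INP1 were called on leaving out each library in turn, those for BTG2 and ATF4 were not, and the others were not rerun in that way.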

How the results depend on the processing

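GDF15 was called higher in both lines under every alternative run, and CDKN1A in 23132/87 likewise. On leaving out each library in turn, the number of the 10 genes called ranged from 3 to 8 in SW48 (1 to 3 rose, 2 to 5 fell), from 4 to 7 in 23132/87 (3 to 4 rose, 1 to 3 fell) and from 1 to 3 for the difference between lines (0 to 1 higher in SW48, 1 to 2 lower). With a minimum log2 change of 1, 2 genes were called in each line, of which 2 rose and 0 fell. With all 12 libraries in one fit 4 genes fell in SW48. Without both SW48 vehicle replicate 2 and SW48 myricone C replicate 1, an alternative chosen after seeing the data, 4 fell in SW48 and 4 differed between lines, 3 of them lower in SW48. A minimum of 10 in at least 3 libraries left 1 gene that differed, with 0 lower, because TP53INP1 was then not tested, and a pseudocount of 5 left 1, with 0 higher. The cause of the other changes was not tested.

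Signs turned for small values that were not called. SESN1 in 23132/87 was at -0.00536 after quantile normalization, and ranged from -0.0241 to 0.13 with libraries left out. The MDM2 difference was at 0.0142 after quantile normalization, 0.0554 after median-centred scaling and 0.26 with the block by column number, and ranged from -0.17 to 0.14 with single libraries left out and was -0.187 without the pair named above. The CCNG1 difference ranged from -0.0127 to 0.22 and that of GADD45A from -0.0746 to 0.61.

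Replicate numbers were not taken to pair the libraries: correlations of deviations lay between -0.27 and 0.11 by title number. By the numbers of the SW48 columns, which give 2 pairs, they were 0.15 and 0.27, too few pairs to decide. With the replicate number from the titles as a block, 5 of the 10 genes were called in SW48, 7 in 23132/87 and 1 for the difference, with 0 higher. With a block by those column numbers 1 gene fell in SW48 and 2 differences were higher. Over all genes, risen genes made up 34.6% of calls in SW48 as deposited, 46.2% after quantile normalization, 42.4% after median-centred scaling and 46.4% without mitochondrial pseudogenes and small RNA genes. They made up 50.1% in 23132/87 as deposited and 59.1% without those genes. For the difference between lines the share was 41.8% as deposited, 54.5% after quantile normalization and 54.2% after median-centred scaling. Read depth is unknown, so its limit on low genes such as TP53INP1, SESN1 and ZMAT3 cannot be given.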
